A study of Bos taurus with 15 samples.

Results

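REST and 8 genes of the corepressors that it recruits were followed in the transcriptome of bovine blastocysts cultured with or without oviductal extracellular vesicles (oEVs). The 9 genes are REST, RCOR1, RCOR3, KDM1A, SIN3A, HDAC1, HDAC2, HDAC3 and CTDSP1. They were taken by their NCBI gene identifiers from the count table of 10832 genes that the authors kept after filtering, and all 9 were in it (REST is gene 507148). Total RNA had been sequenced from pools of in vitro produced day 7 blastocysts, with 1 library per pool and 5 libraries per treatment. Control embryos (Co) received no vesicles, and the other embryos were cultured with postovulatory oEVs that were either freshly isolated (FeEV) or frozen and thawed (FoEV). Each pool held between 8 and 14 embryos, so a library is an average over whole blastocysts, and the pools chosen for sequencing were those with the best RNA. By the study's text, fresh and frozen vesicles were portions of material from the same oviducts. The labels do not say which pools shared a vesicle preparation or fertilization run, and p-values therefore measure the spread between these pools.

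REST (RE1 silencing transcription factor) is a zinc finger protein that binds the RE1 element and represses neuronal genes in cells that are not neurons. It carries a repressor domain at each end. One domain recruits SIN3A, a scaffold for the histone deacetylases HDAC1 and HDAC2, and the other recruits RCOR1 (CoREST), which holds the same deacetylases together with the histone demethylase KDM1A (LSD1). HDAC3 is the catalytic subunit of the NCoR corepressor complex, and CTDSP1 is a small phosphatase that acts on the tail of RNA polymerase II and has been linked to REST at neuronal genes. REST is also known from embryonic stem cells, whereas the deacetylases and KDM1A serve many other transcription factors.

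The libraries held between 2136713 and 4058887 counts, and every FoEV library held more than every Co library (difference of means 957432 counts, two-sided exact permutation test, p = 0.00794). All levels are given as CPM, counts per 1000000 counts of a library, after TMM scaling, which removes the difference in totals but leaves the counting error smaller in FoEV. The share of counts on ribosomal RNA genes was 21.8% ± 4.87 for Co libraries, 20.7% ± 3.84 for FeEV libraries and 21.3% ± 4.597 for FoEV libraries (SD, n = 5). Markers of all 3 blastocyst lineages were present. Of the markers listed, 10 of 12 for trophectoderm, 6 of 8 for inner cell mass and 8 of 9 for hypoblast passed the filter, against 2 of 8 for cumulus and granulosa cells and 2 of 7 for the oviduct epithelium. The oviduct marker PAEP had no read in any library, and OVGP1 had 32 reads over the 15 libraries. The 2 oviduct markers that passed, MUC16 and PAX8, had 555 and 396 reads and were present in all 15 libraries. No pair of libraries within a treatment was close enough to be 1 library deposited again (lowest chi-square per degree of freedom 3.74).

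The mean level of REST was lowest in embryos treated with frozen oEVs. REST was at 411 CPM ± 66.8 in Co, 398 CPM ± 38.0 in FeEV and 325 CPM ± 31.3 in FoEV (SD, n = 5). The FoEV level was 0.79 of the Co level and 0.82 of the FeEV level in the fitted model, with 95% intervals of 0.68 to 0.92 and 0.70 to 0.95. Neither difference passed the adjustment over all genes. In bulk RNA of this kind, fewer cells of a type and less RNA per cell cannot be told apart.

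The Co libraries gave 330.0, 491, 442, 437 and 353 CPM of REST, the FeEV libraries 366, 462, 383, 403 and 378 CPM, and the FoEV libraries 279, 345, 359.6, 331 and 312 CPM. All 5 FoEV libraries lay below all 5 FeEV libraries, although the highest FoEV and the lowest FeEV library were close. Against Co the treatments overlapped, because 2 Co libraries sat within the range of the FoEV libraries, and 2 FoEV libraries lay below every Co library. Between 861 and 1454 reads stood behind each of these values. The coefficient of variation between Co pools was 16.3%, against 2.97% from counting alone. The spread includes the preparation of libraries from 1 ng of RNA with amplification, which cannot be told apart from differences between pools.

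The log2 fold change of REST in FoEV vs. Co was -0.34 ± 0.11 (SE), with an unadjusted p = 0.00414 and an adjusted p = 0.159 (edgeR quasi-likelihood F test, Benjamini-Hochberg over 10832 genes). In FoEV vs. FeEV it was -0.29 ± 0.11, with an unadjusted p = 0.0111 and an adjusted p = 0.496 in the same test. In FeEV vs. Co it was -0.05 ± 0.11, with a 95% interval from -0.26 to 0.17 and an unadjusted p = 0.673. The comparisons FoEV vs. Co and FeEV vs. Co share the Co libraries. Over 11 other settings the FoEV vs. Co value stayed between -0.38 and -0.32, with adjusted p from 0.0569 to 0.250, and leaving out each library in turn moved it between -0.41 and -0.26.

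In the later annotation used for gene names, gene 507148 carries the symbol RESTB, with REST as its synonym, and its span overlaps that of another protein-coding gene, RESTA (gene 615792). The strand setting of the counting was not given in the sources used here, so reads in the overlap could have been lost or assigned to either gene. RESTA held 6615 reads over the 15 libraries against 17628 for REST. Its level was 152 CPM in Co, 146 CPM in FeEV and 127 CPM in FoEV, and its log2 fold change in FoEV vs. Co was -0.26 ± 0.15 (unadjusted p = 0.0894, adjusted p = 0.406, edgeR). Across the 15 libraries, as deviations from the treatment means, RESTA followed REST with r = 0.866. With the reads of both genes summed, the log2 fold change of REST was -0.32 in FoEV vs. Co (unadjusted p = 0.00978) and -0.27 in FoEV vs. FeEV (unadjusted p = 0.0257). RCOR3 likewise overlaps LOC100336777, and CTDSP1 overlaps MIR26B, which had 1 read in all libraries. The remaining 6 genes overlap no other gene there.

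**Figure D1:**
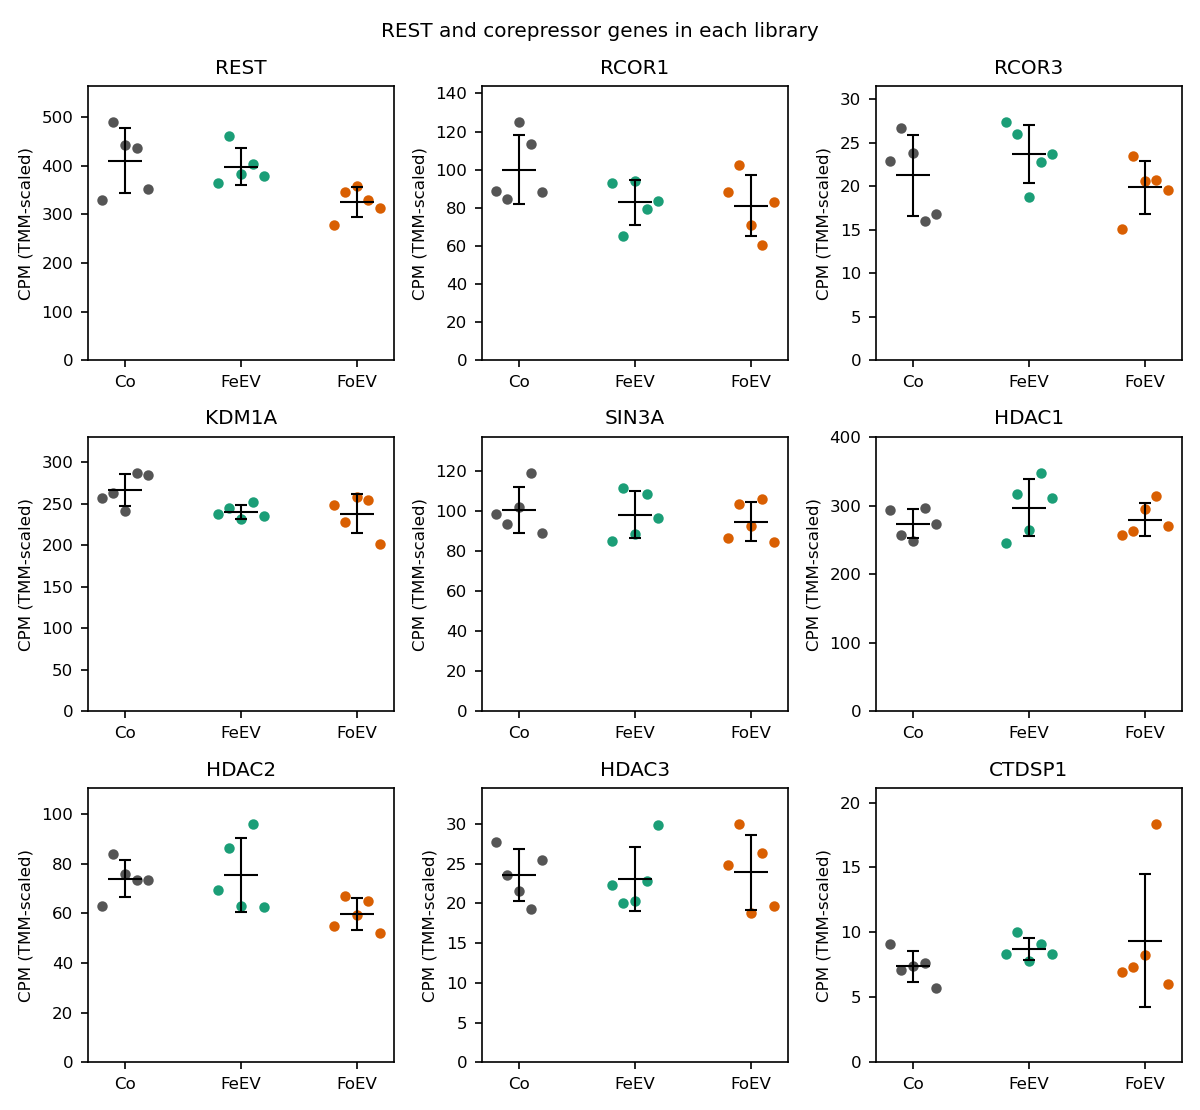
TMM-scaled CPM (vertical axes, from 0, a separate scale per gene) of the 9 genes in each of the 15 libraries, by treatment on the horizontal axes. Points are libraries, and bars give the mean ± SD of 5 libraries. The 5 FoEV points of REST lie below all FeEV points, HDAC2 is lowest in FoEV, and 1 FoEV library stands far above the others in CTDSP1.

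Among the CoREST genes, RCOR1 had an unadjusted p under 0.05 in FoEV vs. Co in the model used, and KDM1A and RCOR3 did not in any comparison. RCOR1 is the scaffold that joins KDM1A to the deacetylases. Its Co libraries held 88.6, 84.7, 125, 114 and 88.2 CPM, its FeEV libraries 93.0, 65.0, 93.8, 79.2 and 83.8 CPM, and its FoEV libraries 88.4, 102, 71.1, 60.8 and 83.1 CPM. The treatments overlapped, and the Co mean was raised by the 2 libraries at 114 and 125 CPM, which no FeEV or FoEV library reached. The log2 fold change of RCOR1 was -0.30 ± 0.14 in FoEV vs. Co (unadjusted p = 0.0446, adjusted p = 0.317, edgeR). Without the third Co library it was -0.20 (unadjusted p = 0.165), and 5 of the 10 single libraries, when left out, took the unadjusted p above 0.05. In FeEV vs. Co it was -0.27 ± 0.14 (unadjusted p = 0.0714), and between the vesicle treatments -0.03 ± 0.14 (unadjusted p = 0.828).

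KDM1A, which removes methyl groups from lysine 4 of histone H3, varied least of the 9 genes between pools in Co and in FeEV. It was measured at 257, 263, 241, 287 and 284 CPM in Co, at 238, 245, 232, 252 and 235 CPM in FeEV and at 248, 228, 258, 254 and 202 CPM in FoEV. Its coefficient of variation of 3.40% in FeEV was no larger than the 3.73% that counting alone gives. The log2 fold change was -0.16 ± 0.08 in FoEV vs. Co (95% interval -0.33 to 0.01, unadjusted p = 0.0650) and -0.15 ± 0.08 in FeEV vs. Co (95% interval -0.32 to 0.02, unadjusted p = 0.0886). The interval reaches 0 in both. RCOR3, a paralogue of RCOR1, had between 40 and 93 reads per library, and its level ranged from 16.1 to 26.7 CPM in Co, from 18.8 to 27.4 CPM in FeEV and from 15.1 to 23.5 CPM in FoEV. Its log2 fold change was -0.11 ± 0.17 in FoEV vs. Co, 0.15 ± 0.17 in FeEV vs. Co and -0.26 ± 0.16 in FoEV vs. FeEV, with unadjusted p of 0.523, 0.375 and 0.129.

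Of the genes of the SIN3 arm, HDAC2 had an unadjusted p under 0.05 in FoEV vs. Co and in FoEV vs. FeEV, and SIN3A and HDAC1 had none in any comparison. HDAC1 and HDAC2 are close paralogues that sit together in the SIN3, CoREST and NuRD complexes. HDAC2 was at 63.1, 84.0, 75.8, 73.4 and 73.5 CPM in Co, at 69.4, 86.5, 63.2, 96.1 and 62.6 CPM in FeEV and at 54.9, 67.1, 59.5, 65.1 and 52.1 CPM in FoEV. The FoEV libraries lay low, 3 of the 5 below every Co library and 3 below every FeEV library, but the ranges overlapped. The log2 fold change of HDAC2 was -0.31 ± 0.12 in FoEV vs. Co (unadjusted p = 0.0199, adjusted p = 0.235) and -0.33 ± 0.12 in FoEV vs. FeEV (unadjusted p = 0.0132, adjusted p = 0.49995, both edgeR). In counts thinned to equal depth the first of these was -0.24 (unadjusted p = 0.0713). It was -0.26 without the second Co library (unadjusted p = 0.0592) and -0.26 without the fifth FoEV library (unadjusted p = 0.0554). The unadjusted p of HDAC2 in FoEV vs. Co was under 0.05 in 10 of 11 alternative settings and in 8 of 10 fits with a single library left out. In FeEV vs. Co the value for HDAC2 was 0.02 ± 0.12.

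HDAC1 ranged from 249 to 297 CPM in Co, from 246 to 348 CPM in FeEV and from 257 to 314 CPM in FoEV. Its log2 fold change was 0.03 ± 0.10 in FoEV vs. Co, with a 95% interval from -0.17 to 0.23, and 0.12 ± 0.10 in FeEV vs. Co. SIN3A, the scaffold, ranged from 89.1 to 119 CPM in Co, from 85.2 to 111 CPM in FeEV and from 84.8 to 106 CPM in FoEV. Its log2 fold change was -0.09 ± 0.10 in FoEV vs. Co and -0.04 ± 0.11 in FeEV vs. Co. The ranges of both genes overlapped between the treatments, with 3 FeEV libraries of HDAC1 above every Co library, and the intervals allow a change in FoEV vs. Co of up to 0.23 upward for HDAC1 and 0.30 downward for SIN3A on the log2 scale (lower bound -0.30).

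HDAC3 and CTDSP1 had few reads. HDAC3 was at 23.5 CPM ± 3.28 in Co, 23.1 CPM ± 3.99 in FeEV and 23.9 CPM ± 4.72 in FoEV (SD, n = 5), and its log2 fold change was 0.02 in FoEV vs. Co, -0.02 in FeEV vs. Co and 0.05 in FoEV vs. FeEV, each with an SE of 0.16. CTDSP1 had between 14 and 55 reads per library and averaged 7.398 CPM ± 1.21 in Co, 8.74 CPM ± 0.855 in FeEV and 9.38 CPM ± 5.09 in FoEV (SD, n = 5). The FoEV mean rested on the fourth library, at 18.4 CPM, while the other FoEV libraries were between 6.00 and 8.27 CPM. The log2 fold change of CTDSP1 in FoEV vs. Co was 0.31 ± 0.27 with this library and -0.06 without it. Counting error alone amounts to 22.1% of the CTDSP1 level in Co, and a difference of the size seen for REST was not detectable for CTDSP1 at this depth.

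**Figure D2:**
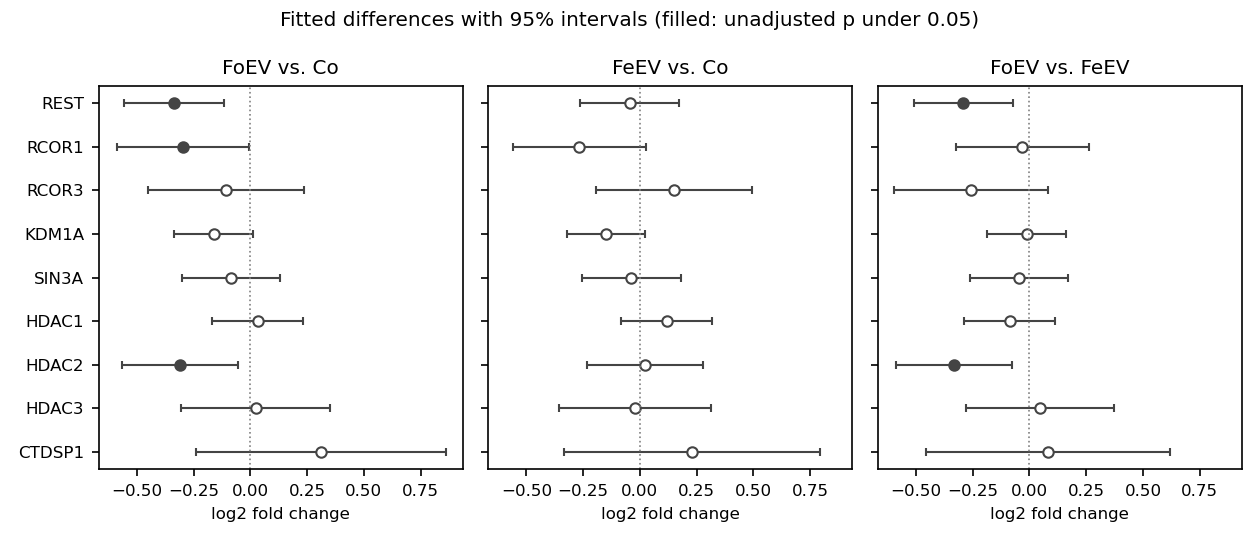
Fitted log2 fold change (horizontal axis) of the 9 genes with 95% intervals in the comparisons FoEV vs. Co, FeEV vs. Co and FoEV vs. FeEV. Filled points have an unadjusted p under 0.05, which are REST, RCOR1 and HDAC2 on the left, none in the middle and REST and HDAC2 on the right, and none of them has an adjusted p under 0.05.

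Counted over the 9 genes, 3 were higher and 6 lower in FoEV than in Co, with a median log2 fold change of -0.11 against 0.01 over all genes. None had an adjusted p under 0.05 by edgeR, and none by the DESeq2 Wald test or the robust likelihood ratio test. The share of all genes called at this threshold was 0.00923% in FoEV vs. Co and 0% in both FeEV vs. Co and FoEV vs. FeEV. At an unadjusted p under 0.05, 3 of the 9 genes (REST, RCOR1 and HDAC2) differed in FoEV vs. Co, where 15.1% of all genes did, and all 3 were lower, as 6.88% of all genes were. Such a count in 9 chosen genes carries no test of its own.

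In FeEV vs. Co, 4 members were above and 5 below the Co level (median -0.02), and 0 of 9 had an unadjusted p under 0.05, where 4.15% of all genes did. In FoEV vs. FeEV, 2 were higher and 7 lower, with a median of -0.05 against 0.01 over all genes. REST and HDAC2 had an unadjusted p under 0.05 in that comparison, both lower, beside 8.52% of all genes in either direction and 3.69% in the lower one. The libraries of FoEV and FeEV did not overlap for 1 of the 9 genes, REST, as for 1.5% of all genes. In FoEV vs. Co and in FeEV vs. Co they overlapped for each of the 9, while 2.6% and 0.951% of all genes were apart.

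The ratio of the counts of 2 genes in the same library does not depend on the scaling. For each library 4 ratios were formed and compared in the 3 comparisons, a choice made after the levels had been seen, and p-values were adjusted over these 12 tests. For every read of SIN3A there were 3.44 ± 0.321 reads of REST in FoEV, 4.07 ± 0.263 in FeEV and 4.11 ± 0.728 in Co (SD, n = 5). The log2 ratio was lower by -0.24 in FoEV vs. FeEV (two-sided exact permutation test, p = 0.0159, adjusted p = 0.190) and by the same amount in FoEV vs. Co (exact p = 0.0794). For every read of HDAC2 there were 4.72 ± 0.488 reads of HDAC1 in FoEV against 3.75 ± 0.630 in Co, a log2 difference of 0.34 (exact permutation p = 0.0317, adjusted p = 0.190). In FoEV vs. FeEV the log2 difference was 0.24 (exact permutation p = 0.0794). With single libraries left out, the p in FoEV vs. Co ran from 0.0159 to 0.0635 (exact permutation tests) and was under 0.05 in 4 of 10 cases. The ratios of REST to SIN3A and of HDAC1 to HDAC2 restate the levels of these genes that led to their choice. They add no independent evidence to those levels. REST to RCOR1 was close to equal in FoEV and Co, with a log2 difference of -0.02 (exact permutation p = 0.944). RCOR1 to RCOR3 was lower by -0.44 in FeEV vs. Co (exact permutation p = 0.135) and by -0.22 in FoEV vs. Co (exact permutation p = 0.405).

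Of the 8 corepressor genes, HDAC2 had the highest correlation with REST between pools of the same treatment, but the relation depended on the processing. With the treatment means removed from log2 CPM, their Pearson correlation over 15 libraries was r = 0.635 (two-sided permutation test within treatments, p = 0.00454, adjusted over the 8 relations of REST p = 0.0363), and Spearman's rho was 0.679 (permutation p = 0.00311, adjusted p = 0.0249). Without the 2 libraries farthest from the median of REST, r was 0.528. The relation was not stable at the adjusted threshold, since the adjusted p rose above 0.05 when any 1 of 10 of the 15 libraries was left out, while r stayed between 0.564 and 0.755. With the means of libraries of the same replicate number removed as well, r was 0.101 (permutation p = 0.754, adjusted p = 0.887), and none of the 8 relations passed. REST and SIN3A gave r = 0.494 (permutation p = 0.0835, adjusted p = 0.334; rho = 0.511) with r = 0.742 without the 2 farthest libraries and r = -0.0443 with the means of libraries of the same replicate number removed. The other relations ran from r = -0.398 for HDAC3 to r = 0.430 for RCOR3, and all had an adjusted permutation p of 0.334 or more. RCOR1 and KDM1A gave r = -0.118 and r = 0.0615. Over all 10831 other genes, the median r with REST was 0.00334, and the middle part of the distribution, between the quartiles, lay from -0.304 to 0.305. These libraries share scaling and depth, which also enter such correlations.

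**Figure D3:**
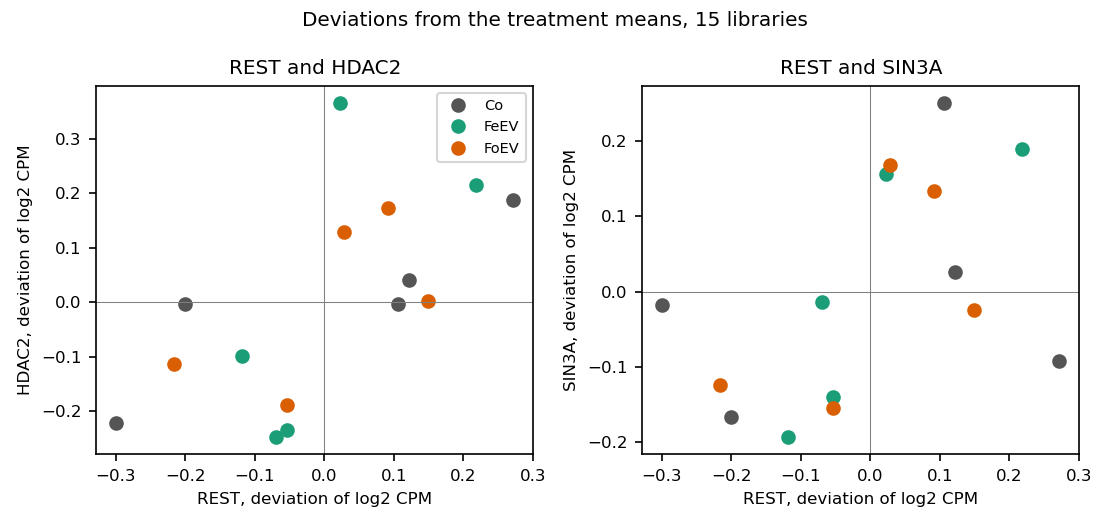
Deviation of log2 CPM from the treatment mean for REST (horizontal axes) against HDAC2 (left) and SIN3A (right), 1 point per library and 1 colour per treatment. Over all 15 libraries r is 0.635 for HDAC2 and 0.494 for SIN3A. Without the 2 libraries farthest from the median of REST the order reverses (0.528 and 0.742). With the means of the same replicate number removed r is 0.101 and -0.0443.

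The genes most like REST in this measure were sought among the 6500 genes with a mean of at least 20 CPM. The closest were ZC3H11A (r = 0.907), MSANTD2 (0.901), RASSF8 (0.901), LOC100124497 (0.889) and ARIH1 (0.879). The most opposed were SPINT1 (r = -0.914), MFGE8 (-0.896) and PLD3 (-0.890), of which SPINT1 encodes a protease inhibitor of epithelia and MFGE8 a secreted glycoprotein. These values describe the pattern over 15 libraries and were picked as extremes, so that they carry no test.

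The genes of the complexes around REST were counted from lists, which hold 83 genes in all with the members, and 79 of them passed the filter. In FoEV vs. Co, 39 of the 79 were higher and 40 lower, with 8 and 9 at an unadjusted p under 0.05, beside 8.18% of all genes in the higher and 6.88% in the lower direction, and none had an adjusted p under 0.05 (edgeR; 3 without the filter on low counts). Over all genes, 5665 were higher and 5167 lower. The complexes as a whole were therefore split about evenly, and single subunits differed in opposite directions. In FeEV vs. Co the split was 45 higher and 34 lower, and only NCOR1 had an unadjusted p under 0.05, at 0.19 ± 0.07 (unadjusted p = 0.0179), beside 4.15% of all genes. In FoEV vs. FeEV it was 38 higher and 41 lower, with 4 and 5 at an unadjusted p under 0.05, beside 4.83% and 3.69% of all genes.

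Of the 15 CoREST genes, 6 were higher and 9 lower in FoEV vs. Co, with a median log2 fold change of -0.02. RCOR2, the third CoREST paralogue, had a value of 0.49 ± 0.18 (unadjusted p = 0.0127, adjusted p = 0.212, edgeR), opposite to that of RCOR1. HMG20B, a subunit of the KDM1A and CoREST complex, was at 31.2 CPM ± 5.23 in Co and 40.0 CPM ± 5.07 in FoEV (SD, n = 5). Its log2 fold change was 0.36 ± 0.14 in FoEV vs. Co (unadjusted p = 0.0220) and 0.31 ± 0.14 in FoEV vs. FeEV (unadjusted p = 0.0412).

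Of the 18 SIN3 genes, 7 were higher and 11 lower in FoEV vs. Co, with a median of -0.04. Besides HDAC2, SINHCAF was lower (-0.25 ± 0.10, unadjusted p = 0.0186) and BRMS1 higher (0.33 ± 0.14, unadjusted p = 0.0261). Both are subunits of the SIN3 complex. The 13 NuRD genes, of the remodelling complex that also carries HDAC1 and HDAC2, were split into 8 higher and 5 lower with a median of 0.09, and MBD3 had 0.34 ± 0.14 (unadjusted p = 0.0218). HDAC2 was the only NuRD gene that was lower at an unadjusted p under 0.05.

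The NCoR complex was represented by 6 genes, of which 5, HDAC3 among them, were higher and 1 was lower in FoEV vs. Co (median 0.16). The lower one was TBL1XR1, at 136 CPM ± 23.1 in Co, 135 CPM ± 20.5 in FeEV and 103 CPM ± 8.58 in FoEV (SD, n = 5). Its log2 fold change was -0.40 ± 0.12 in FoEV vs. Co (unadjusted p = 0.00270, adjusted p = 0.144) and -0.39 ± 0.12 in FoEV vs. FeEV (unadjusted p = 0.00326, adjusted p = 0.453, both edgeR). Its paralogue TBL1X, an adaptor of the same complex, had 0.28 ± 0.10 in FoEV vs. Co (unadjusted p = 0.0110).

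The small CTD phosphatases had a median of -0.24 in FoEV vs. Co, the lowest of the lists. CTDSPL (-0.43 ± 0.16, unadjusted p = 0.0150) and CTDSPL2 (-0.26 ± 0.11, unadjusted p = 0.0249) were lower, CTDSP2 stood at -0.22 ± 0.13, and CTDSP1 alone was above 0, through the fourth FoEV library. Among the other cofactors and regulators of REST, where 7 of 10 were higher, SMARCE1 of the BAF complex had 0.20 ± 0.10 (unadjusted p = 0.0454). None of the 6 other histone deacetylases measured reached an unadjusted p of 0.05 (smallest 0.168, HDAC5). Of the 13 other histone demethylases, 5 were higher and 8 lower, with KDM2B at -0.39 ± 0.14 (unadjusted p = 0.0133), KDM5C at 0.32 ± 0.13 (unadjusted p = 0.0290) and KDM4B at 0.29 ± 0.14 (unadjusted p = 0.0487).

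**Figure D4:**
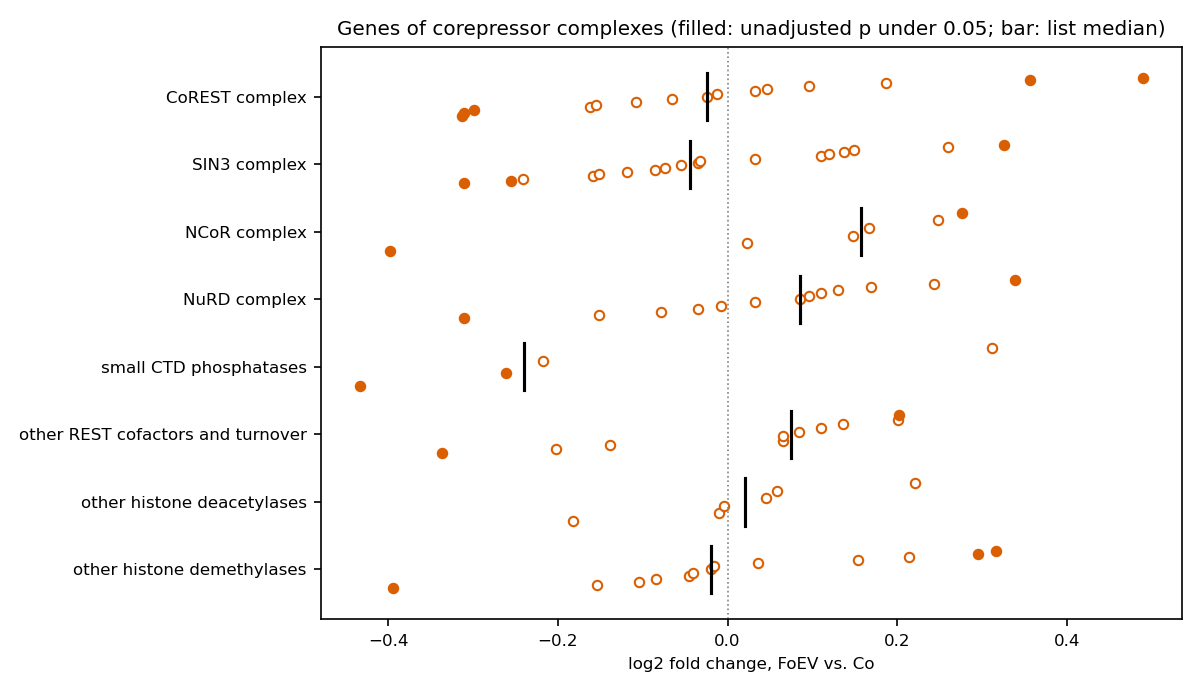
Log2 fold change in FoEV vs. Co (horizontal axis) of each gene of the 8 lists, 1 point per gene; a gene of 2 complexes appears in both, and REST itself is in the list of other REST cofactors. Filled points have an unadjusted p under 0.05, and vertical bars are list medians, from -0.24 for the small CTD phosphatases to 0.16 for the NCoR complex.

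Genes known as REST targets, most of them neuronal, mostly had few reads in these blastocysts in all treatments. Of 36 such genes listed, 11 passed the filter (30.6%, against 49.8% of protein-coding genes). None of the 25 others had 0 reads, but 10 of them had between 1 and 15 reads over the 15 libraries together. The synaptic vesicle gene SYP and the neuropeptide gene TAC1 had 1 read each, and the most counts among these 25 were the 208 of UNC13A.

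The 11 measured targets were DPYSL3, TUBB3, L1CAM, BDNF, CALB1, SYN1, SYT4, STX1A, CHGA, NPPB and SNAP25. Their median log2 fold change was 0.04 in FoEV vs. Co, with 6 of them higher and 5 lower. It was 0.20 in FoEV vs. FeEV, with 8 higher and 3 lower, and -0.02 in FeEV vs. Co, with 5 higher and 6 lower. Over all genes the median was 0.01 in FoEV vs. Co, 0.01 in FoEV vs. FeEV and 0.004 in FeEV vs. Co. DPYSL3, a phosphoprotein of growing axons, was at 60.4 CPM ± 11.9 in Co, 65.5 CPM ± 13.8 in FeEV and 75.7 CPM ± 11.8 in FoEV (SD, n = 5). It had the only unadjusted p under 0.05 among the targets, with a log2 fold change of 0.33 ± 0.15 in FoEV vs. Co (unadjusted p = 0.0388, adjusted p = 0.301, edgeR). This is 1 of 11 genes, where 15.1% of all genes had such a p in FoEV vs. Co and 8.18% in the higher direction. The list thus held no more calls than all genes did. TUBB3, the neuronal beta tubulin, stood at 0.43 ± 0.24 in FoEV vs. Co (unadjusted p = 0.0847), and L1CAM, a neural adhesion molecule, at 0.47 ± 0.23 in FoEV vs. FeEV (unadjusted p = 0.0503). STX1A, a syntaxin of the synapse, was at 0.46 ± 0.26 in FoEV vs. Co (unadjusted p = 0.0892) and at 0.45 ± 0.26 in FeEV vs. Co (unadjusted p = 0.0972). In the other direction, SNAP25 was at -0.36 ± 0.34, SYT4 at -0.30 ± 0.28 and CALB1 at -0.41 ± 0.48 in FoEV vs. Co. The measured targets thus had no shared direction in FoEV vs. Co. The summed level of the 36 genes ran from 166 to 227 CPM in Co, from 186 to 222 CPM in FeEV and from 190.3 to 279 CPM in FoEV, and these ranges overlap.

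**Figure D5:**
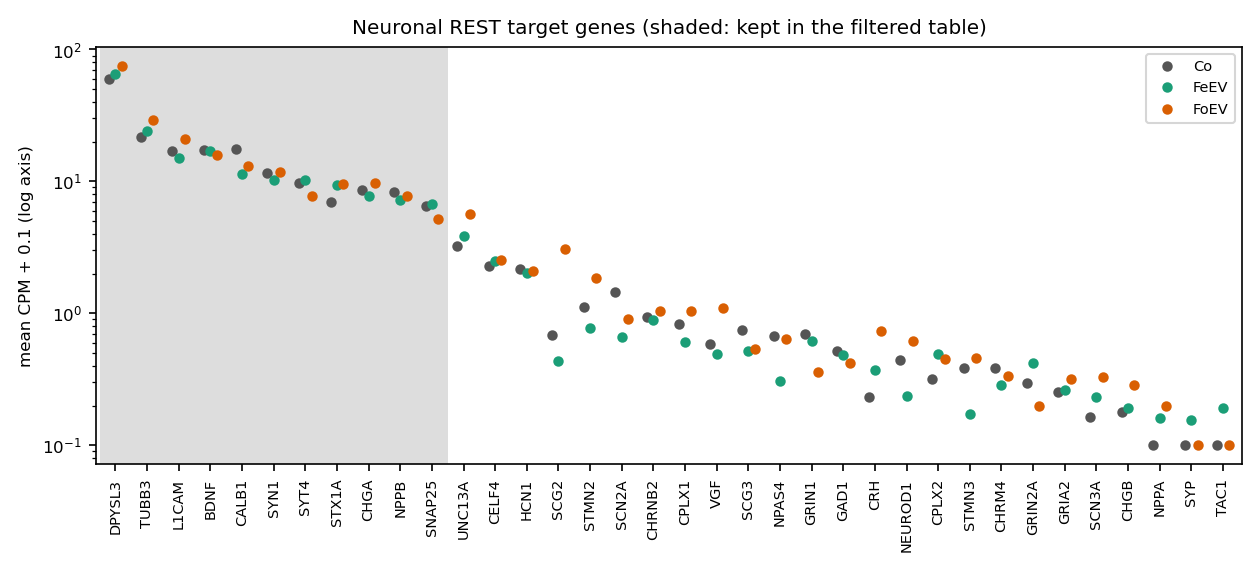
Mean CPM + 0.1 (vertical axis, log scale) of 36 REST target genes, most of them neuronal, in Co, FeEV and FoEV, ordered by total counts. The 11 genes on the grey field passed the filter on low counts. The 25 others had fewer total counts, down to genes with 1 read in all. In FoEV the mean of UNC13A (5.59 CPM), which did not pass, lies above that of SNAP25 (5.11 CPM), which did.

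Markers of the blastocyst lineages were compared in the same fit, and none had an adjusted p under 0.05. The paper, which used robust dispersions, lists NANOG among its lower and KRT18 among its higher genes in FoEV vs. Co. Its threshold was a false discovery rate of 0.05. These 2 markers were not followed under the robust test here, and the cause of the difference was not tested. Of the 10 measured markers of the trophectoderm, the outer epithelium of the blastocyst, 9 were higher and 1 lower in FoEV vs. Co, and 4 had an unadjusted p under 0.05, all higher (KRT18, GATA3, GATA2 and KRT8), beside 8.18% of all genes in that direction. FeEV vs. Co gave 7 higher and 3 lower, and 0 had an unadjusted p under 0.05. KRT18 had the smallest p, with a log2 fold change of 0.55 ± 0.13 (unadjusted p = 0.000347, adjusted p = 0.0818, edgeR). The summed level of the trophectoderm list ran from 8120 to 11232 CPM in Co, from 8480 to 12957 CPM in FeEV and from 10344 to 13970 CPM in FoEV. Such sums rest on the most abundant genes. In Co, KRT8, KRT18 and PTGS2 averaged 4228, 2660 and 1788 CPM of a mean sum of 9694 CPM. The inner cell mass list spanned 466 to 557 CPM, 468 to 551 CPM and 413 to 621 CPM in the same order. Of its 6 measured markers, 3 were higher and 3 lower in FoEV vs. Co. Only 1 had an unadjusted p under 0.05, the pluripotency factor NANOG, beside 6.88% of all genes in the lower direction. NANOG was at -0.84 ± 0.26 in FoEV vs. Co (unadjusted p = 0.00641, adjusted p = 0.178) and at -0.62 ± 0.26 in FeEV vs. Co (unadjusted p = 0.0342). The hypoblast list ran from 6566 to 9124 CPM, 5748 to 8147 CPM and 4853 to 7561 CPM. FN1 alone averaged 6741 CPM of a mean sum of 7735 CPM in Co, so this sum mostly follows FN1. Of the 8 measured hypoblast markers, 2 were higher and 6 lower in FoEV vs. Co. Only FN1 had an unadjusted p under 0.05 there, at -0.29 ± 0.14 (unadjusted p = 0.0496). The cumulus and granulosa list summed to 25.4 to 40.2 CPM in Co, 27.4 to 46.0 CPM in FeEV and 26.2 to 46.2 CPM in FoEV, and the oviduct list to 15.7 to 34.0, 14.4 to 18.5 and 15.3 to 34.3 CPM. The part of lineage proportions in the levels of REST, RCOR1 and HDAC2 was not tested.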

How the data were processed

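Total RNA of pooled blastocysts was sequenced from libraries made of 1 ng of RNA with a low-input kit that selects strand. The authors deposited read counts per gene without normalization, for 34773 genes and for the 10832 that passed their filter on low counts. The reads had been mapped to the bovine assembly ARS-UCD1.2. For counting, the methods name QuasR Qcount, whereas the submitters' processing notes list Trim Galore 0.4.3.1, HISAT2 2.1.0 and featureCounts 1.6.3. The use of strand and of reads with several positions in counting was not given in the sources used here. The methods state 8 days of culture and the labels 7 days.

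Samples were grouped by treatment from their labels. The filtered counts were scaled by TMM and fitted in 1 model over 15 libraries with edgeR 4.0.16 in R 4.3.3 (estimateDisp, glmQLFit with robust=TRUE, glmQLFTest). The 3 comparisons were tested from this fit, with Benjamini-Hochberg adjustment over 10832 genes and a threshold of 0.05. The common biological coefficient of variation was 0.159. SE is the log2 fold change divided by the root of F, and intervals are 95%. Log2 CPM used a prior count of 2. DESeq2 1.42.0 and a likelihood ratio test on robust dispersions, as in the methods, were alternatives. Correlations used 100000 permutations of libraries within treatments, and ratios and library totals all 252 assignments of 5 against 5 libraries (Python 3.11.15, scipy 1.17.1, numpy 2.4.6, pandas 2.3.3, matplotlib 3.10.9). The fit was tested on simulated counts.

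Symbols came from RefSeq's table of a later assembly, ARS-UCD2.0, in which 10709 of the 10832 identifiers were found. Gene names, gene types and the overlaps between genes were taken from it. Transcript lengths and sequences were not used here, so levels were compared within genes. The members and all lists were chosen with earlier results of these data known. Named from each list were the genes with an unadjusted p under 0.05, at most the 4 with the smallest p, otherwise the gene with the smallest p, and for targets those that passed the filter. Some genes that this rule names are not reported here. UNC13A, SYP, TAC1, RESTA and the genes named beside a paralogue were chosen after their values were seen. Count ratios, counts thinned to equal depth and summed overlapping genes were also chosen after seeing the data. The replicate numbers in the titles were not used as pairs, since the labels do not say what they mark and not every pair of same-numbered libraries correlated above 0.1.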

Additional observations from a re-analysis of the deposited data

Results flagged for a closer look

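Within each treatment, the highest and lowest of the 5 libraries were compared with the rest for each of the 9 genes by Dixon's criterion, 27 groups in all, of which chance alone flags about 1 in 20. A library stood far from the others in 2 of them. HDAC3 was at 29.9 CPM in the fifth FeEV library, on 107 reads, while the other FeEV libraries lay between 20.1 and 22.8 CPM. CTDSP1 was at 18.4 CPM in the fourth FoEV library, on 55 reads, and between 6.00 and 8.27 CPM in the other FoEV libraries. In REST, RCOR1, RCOR3, KDM1A, SIN3A, HDAC1 and HDAC2 no library stood apart by this criterion.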

How the results depend on the processing

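No member passed the adjusted threshold of 0.05 under any of the 11 alternative settings or with any single library left out. REST kept its direction and an unadjusted p under 0.05 in FoEV vs. Co and in FoEV vs. FeEV in all of these. The number of the 9 genes at an unadjusted p under 0.05 ran from 1 to 3 in FoEV vs. Co with single libraries left out (1 without the fifth FoEV library), from 0 to 1 in FeEV vs. Co and from 1 to 2 in FoEV vs. FeEV. In FeEV vs. Co it rose from 0 to 1, RCOR1, without the filter, with only the 2 treatments compared and with the library number as a block. In FoEV vs. Co it was 4 with the DESeq2 Wald test, where KDM1A had an unadjusted p = 0.0385. RCOR3 had an unadjusted p = 0.0412 in FoEV vs. FeEV in thinned counts (edgeR). For the complex lists, 3 genes (RCOR2, TBL1XR1 and KDM2B) passed the adjusted threshold in FoEV vs. Co without the filter. At an unadjusted p the lists gave, in FeEV vs. Co, 4 genes with the robust test, 4 without the filter, 5 with only 2 treatments and 3 with either block, against 1. In FoEV vs. FeEV they gave 5 instead of 9 with the library number as a block. With single libraries left out these counts ran from 10 to 17 in FoEV vs. Co (10 without the fourth FoEV library), from 1 to 4 and from 5 to 9. All genes called in FoEV vs. Co, 1 in the model used, were 144 with DESeq2, 311 with the robust test, 173 without the filter, 57 with a replicate block, 12 with the library number as a block, and 5 in thinned counts or with only 2 treatments. They were 58 without the second FoEV library, 14 without the third, 4 without the second Co library, and 0 or 1 without any other.

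Libraries with the same number in their titles had a mean r of 0.0344 in FoEV and Co (from -0.291 to 0.347), 0.138 in FeEV and Co (from -0.214 to 0.420) and 0.186 in FoEV and FeEV (from 0.0134 to 0.441), against -0.0297 for libraries of other numbers over all 3. For the 10 pairs with the same library number, the mean r was 0.0809 and the lowest -0.202. Neither number was taken as a pairing, since not every pair was above 0.1. With the replicate number as a block, the log2 fold change of REST in FoEV vs. Co was -0.33, with an unadjusted p = 0.00041 and an adjusted p = 0.0569 in edgeR. RCOR1 then lost the unadjusted threshold, while HDAC2 had an unadjusted p = 0.00594 in FoEV vs. Co and 0.00407 in FoEV vs. FeEV (edgeR). With replicate block means removed, no relation of REST passed (0 against 1). REST and HDAC2 then had r = 0.101, and r turned to -0.0472 for KDM1A, -0.0443 for SIN3A, -0.127 for HDAC1 and -0.0495 for CTDSP1. With the library number as a block, the log2 fold change turned to 0.040 for RCOR3 in FoEV vs. Co, 0.077 for HDAC3 in FeEV vs. Co, 0.016 for RCOR1 in FoEV vs. FeEV and -0.13 for CTDSP1 in FoEV vs. FeEV. With the robust test it turned to -0.013 for HDAC2 in FeEV vs. Co and -0.18 for CTDSP1 in FoEV vs. FeEV, and in thinned counts to 0.014 for KDM1A in FoEV vs. FeEV. The causes were not tested.

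Leaving out single libraries moved log2 fold changes across 0 for HDAC1 (-0.012 to 0.062), HDAC3 (-0.074 to 0.092) and CTDSP1 (-0.056 to 0.43) in FoEV vs. Co. The same held for REST (-0.11 to 0.027), SIN3A (-0.088 to 0.029), HDAC2 (-0.075 to 0.083) and HDAC3 (-0.14 to 0.044) in FeEV vs. Co. In FoEV vs. FeEV it held for RCOR1 (-0.13 to 0.054), KDM1A (-0.047 to 0.041), SIN3A (-0.095 to 0.0024), HDAC3 (-0.052 to 0.16) and CTDSP1 (-0.29 to 0.20). The number of relations of REST that passed ran from 0 to 1, r with RCOR1 from -0.274 to 0.0633 and r with KDM1A from -0.0425 to 0.186. The log2 ratio of REST to RCOR1 in FoEV vs. Co ran from -0.12 to 0.10 and that of REST to SIN3A in FeEV vs. Co from -0.067 to 0.094. The difference of library totals ran from -7716 to 410256 counts in FeEV vs. Co and from 547176 to 965149 in FoEV vs. FeEV. Depth limits CTDSP1, HDAC3 and RCOR3 most, with 14 to 119 reads per library.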
